A study of Canis lupus familiaris with 16 samples.

Results

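The loci described here are stretches of the dog genome where captured methylated DNA formed a peak in all 4 deposited peak lists, in lymphoma and in healthy blood and in both kinds of library. They were selected on the lists themselves: a peak of the lymphoma L list was taken where it shared at least 1 bp with a peak of the healthy L, the lymphoma M-H and the healthy M-H list. That gave 11610 loci of 45623 lymphoma L peaks, or 25.4%, and since presence in the lists chose them, that share is a description and no test is attached to it.

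The assay was MethylCap-seq, in which fragments of methylated genomic DNA are captured and sequenced. The lymphoma group was 5 dogs with high-grade B-cell lymphoma, aged 5 to 13 years, sampled by fine needle from swollen lymph nodes; the labelled breeds were schnauzer, dachshund, golden retriever and mixed, with 1 dog's breed not given. The healthy group was 3 dogs aged 2 to 7 years, a golden retriever, a standard poodle and a mixed-breed dog, whose blood mononuclear cells were separated on a Ficoll gradient. From every dog an L and an M-H library were made, 16 libraries in total, and the sources used here do not explain these names. The dogs of a group share 1 peak list per label, so the lists give no value per dog and no spread between dogs, and disease and tissue (lymph node against blood) cannot be told apart. The depth behind the lists is unknown. Intervals below are 95% Wilson intervals for counting error; peaks along a chromosome are not independent of each other, so the true uncertainty is wider.

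In mammals most CpG sites outside CpG islands carry a methyl group in most tissues, through gene bodies and between genes. CpG islands, which hold many promoters, are mostly unmethylated. Known exceptions include the promoters of many germline genes, which are methylated and silent in somatic cells, and one parental copy at imprinted control regions. A capture assay needs several methylated CpGs close together, so its peaks follow CpG density as well as methylation.

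Each list holds a different part of its peaks in common with the others. Counted from the other lists, 11730 of 44811 healthy L peaks (26.2%), 11581 of 34939 lymphoma M-H peaks (33.1%) and 11577 of 19867 healthy M-H peaks (58.3%, 57.6 to 59.0) overlapped a peak in all the others. The healthy M-H list is the shortest and sets the upper limit of what can be common. The loci covered 10.05 Mb, 30.2% of the bases in lymphoma L peaks. Among the lymphoma L peaks that fell short by 1 list, 6188 lacked a healthy M-H peak, 4319 lacked a healthy L peak and 627 lacked a lymphoma M-H peak. A further 10373 were shared with the healthy L list alone, 6704 with the lymphoma M-H list alone, and 5571 with no other list.

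**Figure D1:**
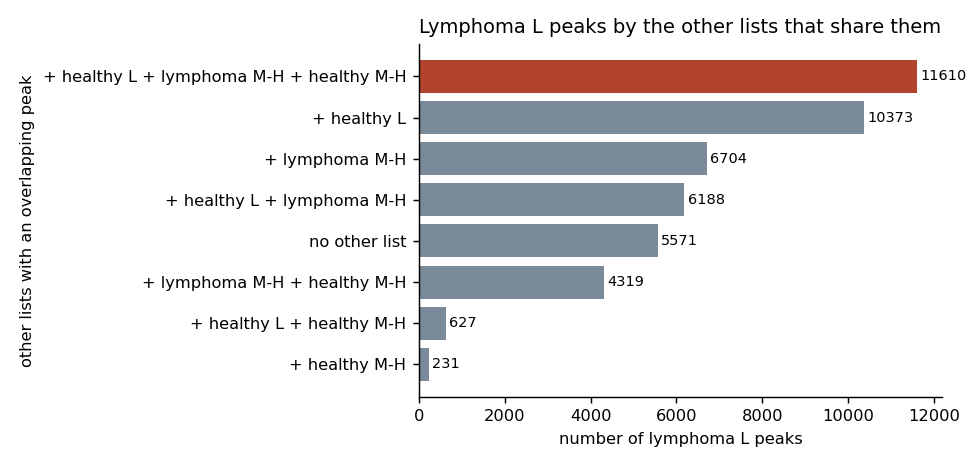
Number of lymphoma L peaks (horizontal axis) by which of the other lists hold an overlapping peak (vertical axis). The 11610 loci in all 4 lists are the longest bar, followed by the 10373 peaks shared with the healthy L list alone.

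The overlaps were deep and the lists placed their peaks at the same position. The smallest of the overlaps with the other lists had a median of 551 bp, and 11561 loci had a stretch covered by all 4 lists at once, with a median of 533 bp (10th to 90th percentile, 352 to 791 bp). The other 49 had no base common to all 4. By length of overlap a single locus sat near the edge of the rule, a peak at chr24:43267376-43268394 whose smallest overlap was 66 bp. Its fold enrichment was 7.49 in lymphoma L, 6.44 in healthy L, 11.2 in lymphoma M-H and 7.63 in healthy M-H. Loci near the lowest listed fold were many and are counted below. Just outside the overlap rule, 7 of 11134 peaks in 3 lists had a peak of the missing list within 100 bp, the nearest at 23 bp, at chr34:24751717-24752595. The healthy L peak across that gap had a fold enrichment of 6.84. Coordinates are CanFam3.1, the build in the submitters' processing notes. The loci were longer than other lymphoma L peaks, with a median of 813 bp against 583 bp, and a longer peak has more room to overlap another; the part of length in the selection was not tested.

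The deposited fold enrichment of a peak was computed by the authors as a ratio of signal to a background that the sources do not specify. It starts at 6 in every list, so a locus below 6 in any list could not be chosen. It is used here to rank peaks inside a list, because its scale differs between lists. The loci ran from 6.003 through a median of 13.0 to 31.8 in lymphoma L, and from 6.002 through 8.996 to 32.6 in healthy L. They ran from 6.02 through 14.8 to 27.5 in lymphoma M-H, and from 6.02 through 9.24 to 26.4 in healthy M-H. They were concentrated among the stronger peaks of each list. Of the loci, 60.3% were in the top 25% of peaks of lymphoma L, 41.5% of healthy L, 54.7% of lymphoma M-H and 37.7% of healthy M-H. Only 2047 (17.6%) were in the top 25% of all 4 lists at once, and 2683 were in the top 25% of none. Many lay near the lowest listed value: 2115 had a fold under 7 in healthy L and 1678 in healthy M-H, against 252 in lymphoma L and 384 in lymphoma M-H. Across the 11610 loci, Spearman's correlation of fold was 0.64 between the L lists and 0.62 between the M-H lists. It was 0.63 between the lymphoma lists, which come from the same 5 dogs, and 0.26 between the healthy lists, which come from the same 3 dogs. The pairs that share neither dogs nor label gave 0.34 for lymphoma L with healthy M-H and 0.35 for healthy L with lymphoma M-H. Loci share sequence composition in all lists, so these coefficients describe the ranking and carry no p-value.

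At the top of that ranking stood a small set of very strong loci, 10 with a fold of at least 20 in every list. Away from promoters the locus whose lowest rank in the 4 lists was highest lay upstream of DEGS1, which encodes the desaturase that makes ceramide from dihydroceramide. This 456 bp peak, at chr7:40156525-40156980 and flagged as a CpG island, had a fold of 30.3 in lymphoma L, 31.6 in healthy L, 27.5 in lymphoma M-H and 26.2 in healthy M-H. An intronic peak of CHRNA7, a nicotinic acetylcholine receptor subunit gene, at chr3:37011808-37012524, had 26.8, 22.3, 22.6 and 20.7 in the same order. A peak in an intron of the uncharacterised LOC102155887, at chr22:5732597-5733086 in a CpG shore, had 22.4, 25.4, 24.1 and 17.8. The remaining 5 of these 8 loci were all intergenic. They lay at chrX:50265964-50266602, chr14:21913228-21913947, chr6:59085401-59086034, chr15:58794166-58794711 and chr7:29673891-29674602, with folds of 16.4 to 27.6 over the 4 lists and no CpG island or shore at any of them.

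Most loci lay away from gene starts. By the authors' annotation 4794 (41.3%, 40.4 to 42.2) were intergenic, 4119 (35.5%) intronic, 609 (5.25%) in coding sequence, 417 (3.59%) in a 3' UTR, 220 (1.89%) in a 5' UTR, 981 (8.45%) upstream of a gene and 470 (4.05%) downstream. Of the other lymphoma L peaks 30.2% were intergenic, and in the healthy L, lymphoma M-H and healthy M-H lists the other peaks were intergenic in 31.5%, 30.6% and 33.4%. The loci were therefore more often intergenic than the remaining peaks of each of the 4 lists. Against the 627 peaks that lacked only a lymphoma M-H peak, of which 38.3% were intergenic (34.6 to 42.1), the intervals overlapped. The authors' enhancer flag was set at 2.89% of the loci (2.60 to 3.21) and at 5.28% of the other lymphoma L peaks; at the 627 peaks lacking only a lymphoma M-H peak it was 3.67% (2.46 to 5.44), which overlaps the loci's interval. Within the 1 kb either side of a transcription start lay 1194 loci, 10.3%, against 12.7% of the other lymphoma L peaks. That order was not the same in every list, since other peaks lay at a start in 6.60% of the healthy L, 16.2% of the lymphoma M-H and 8.31% of the healthy M-H list. Within the lymphoma L list it also turned with fold enrichment, as given below. Among loci assigned to a gene, 27.8% carried a gene symbol that begins with LOC, against 20.3% of the other lymphoma L peaks assigned to a gene.

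CpG islands and their shores held 4818 loci, 41.5% (40.6 to 42.4), against 34.5% of the other lymphoma L peaks. Peak length moved with this flag, and within bins of equal length the excess did not hold. With lymphoma L peaks in 4 bins of equal number by length, 24.2% of the 372 loci in the shortest bin (279 to 488 bp) were near an island, against 16.8% of the other peaks. In the next bin, up to 653 bp, the shares were 30.1% and 29.8%. In the third, up to 881 bp, with 4644 loci, the loci were lower, 30.6% (29.2 to 31.9) against 41.0% (39.9 to 42.2), and in the longest, with 4376, the shares were 60.3% and 62.4%. The intergenic excess and the lower enhancer share kept their direction in every length bin. Between genes lay 35.9% to 46.2% of loci, against 29.3% to 31.2% of other peaks. The enhancer flag was on 1.34% to 3.43% of loci, against 4.94% to 5.86% of other peaks. Neither difference was clear at low fold enrichment, as given below. The flag for island or shore was stable across lists, with 4809 loci carrying it in all 4. The split between island and shore was not: the island flag was on 341 loci in lymphoma L, 644 in healthy L, 388 in lymphoma M-H and 1073 in healthy M-H, and on 231 in all 4. The combined flag is therefore used throughout. The loci are the same positions in all lists, so their share is nearly the same in each by construction. Peaks outside the set were near an island in 13.4% of the healthy L, 60.7% of the lymphoma M-H and 63.8% of the healthy M-H list. Lymphoma L peaks that lacked only a healthy L peak were near an island in 66.9%, those lacking only a healthy M-H peak in 30.5%, and those lacking only a lymphoma M-H peak in 14.7%. The loci were between these classes. The flag was on 81.4% of the 1194 loci at a start and on 36.9% of the 10416 elsewhere.

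**Figure D2:**
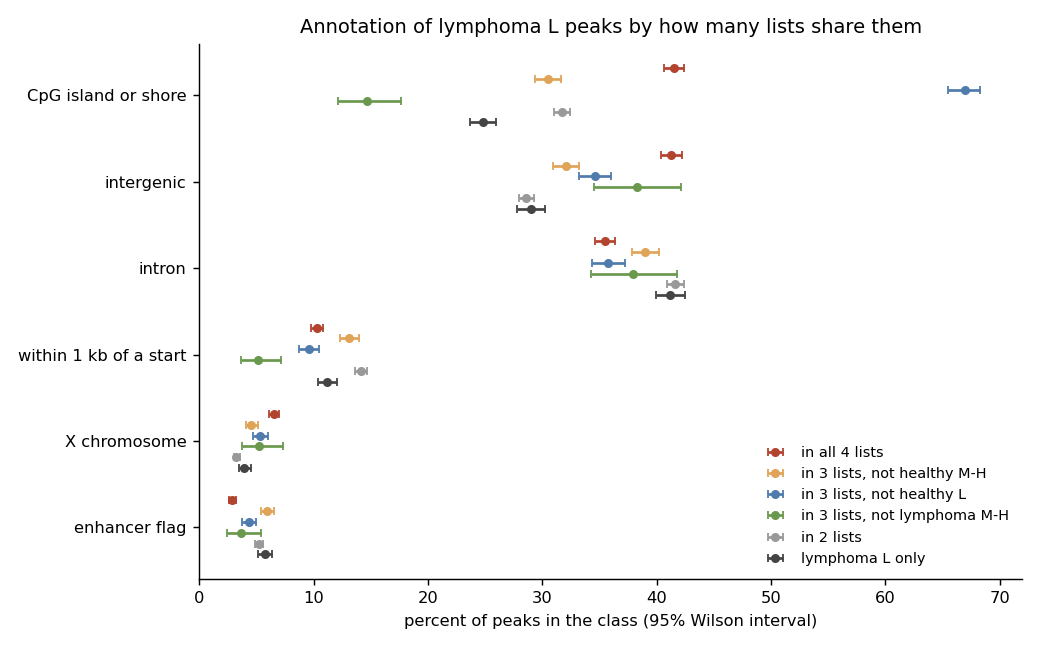
Percent of lymphoma L peaks (horizontal axis) with each annotation (vertical axis), by the lists that share them; points are percents and bars 95% Wilson intervals. Loci in all 4 lists have the highest intergenic share, 41.3%, and the lowest enhancer share, 2.89%, of the 6 classes, with intervals that overlap those of the peaks lacking only a lymphoma M-H peak, while peaks lacking only a healthy L peak are near a CpG island or shore in 66.9%.

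The weak and the strong loci differed in where they lay. Peaks of each list were put in 4 bins of equal number by their fold, with lymphoma L bins running from 6 to 7.14, to 8.92, to 12 and to 31.8. The 325 loci in the lowest bin were near an island in 70.5%, the 1125 in the next in 66.1%, the 3156 in the next in 57.5% and the 7004 in the highest in 29.01%. Other lymphoma L peaks stayed between 32.3% and 36.9% in the same bins. The intergenic share of the loci went the other way, 30.8%, 30.1%, 34.8% and 46.5% from the lowest to the highest bin. For the other lymphoma L peaks it was 29.7%, 29.4%, 30.3% and 33.4%, with overlapping intervals in the lowest bin and the next. The enhancer flag was on 5.23%, 4.80%, 3.55% and 2.18% of loci from the lowest to the highest bin. On other peaks it was 5.10%, 5.42%, 5.22% and 5.54%, so the lowest bin had no lower share in the loci. Within 1 kb of a transcription start lay 20.3%, 16.7%, 13.8% and 7.20% of loci from the lowest to the highest bin. For other peaks the shares were 9.35%, 12.4%, 15.3% and 17.3%. Loci were thus at a start more often than other peaks in the lowest bin and the next, and less often in the highest. In the healthy L list the loci were near an island in 57.6% in the lowest and 26.7% in the highest bin. The M-H lists gave another course, 32.0%, 45.9%, 55.7% and 34.4% from the lowest to the highest bin in lymphoma M-H and 41.3%, 47.6%, 51.0% and 31.2% in healthy M-H. The weakest loci of the L lists were thus mostly near an island, and the weakest of the M-H lists mostly away from one. In the highest bin all 4 lists had 46.5% to 48.7% of their loci between genes and 26.7% to 34.4% near an island. The share of peaks that were 4-list loci rose from 2.81% to 61.4% over the bins of lymphoma L and from 32.7% to 87.9% over those of healthy M-H. A strong peak is further from the threshold of 6, and the part of this in the rise was not tested.

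**Figure D3:**
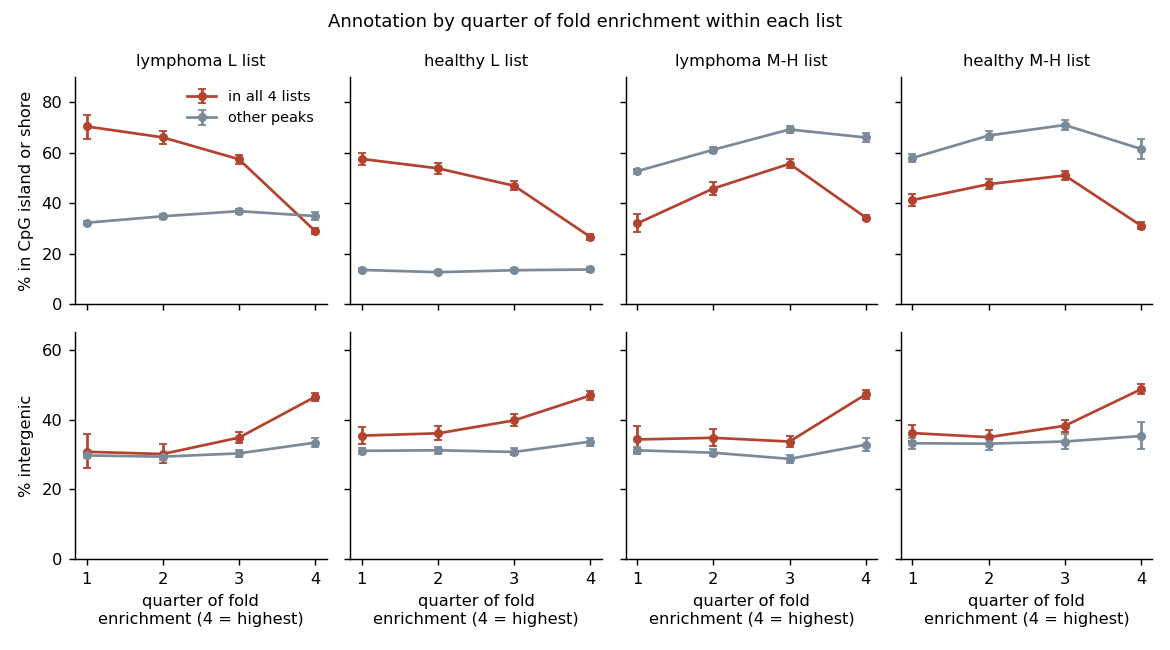
Percent of peaks in a CpG island or shore (upper row) and percent intergenic (lower row) against the bin of fold enrichment within each list (horizontal axis, 4 bins of equal peak number), for loci in all 4 lists and for the other peaks; bars are 95% Wilson intervals. In every list the highest bin of loci is the most intergenic, 46.5% to 48.7%, and in both L lists the island share falls steadily with fold.

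The loci were spread over the whole genome and unevenly between chromosomes. They lay on all 39 chromosomes of the list, a median of 103.8 kb apart, and 2236 of 2330 windows of 1 Mb with any lymphoma L peak held at least 1. Chromosome 32 had the highest share of its lymphoma L peaks in the set, 40.9% (36.1 to 45.8), followed by chromosome 29 with 40.5% and the X chromosome with 36.4% (759 of 2088). Chromosomes 26, 9 and 38 had the lowest shares, 17.3%, 17.5% and 18.1%. The X chromosome held 6.54% of the loci (6.10 to 7.00) and 3.91% of the other lymphoma L peaks. In each of the other 3 lists as well it held more of the loci than of the other peaks (6.50% to 6.54% against 3.25% to 4.85%). The loci are the same positions in every list, so their share is nearly equal by construction. In every bin of lymphoma L fold and of length the X share was higher in the loci. Intervals overlapped in the lowest fold bin (4.3% against 3.2%), the next (5.3% against 4.0%), the shortest length bin (5.4% against 3.3%) and the longest (4.3% against 3.6%). The X chromosome held 5.26% (3.77 to 7.30) of the peaks lacking only a lymphoma M-H peak, which overlaps the loci's interval. The share was 5.30% (4.67 to 6.01) for those lacking only a healthy L peak and 4.57% (4.08 to 5.12) for those lacking only a healthy M-H peak. The dogs' sex is not used here, so X copy number was not considered. Across the 39 chromosomes the share in the set and the intergenic share of all lymphoma L peaks had a Spearman correlation of 0.61, and of 0.58 over the 38 autosomes. These points share 1 list and its annotation.

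The first megabase of the autosomes was rich in loci. There were 11.2 loci per Mb in it, 7.21 per Mb in the last megabase before the last peak and 4.53 per Mb more than 10 Mb from both ends. Of the lymphoma L peaks in the first megabase 35.2% (32.6 to 38.0) were in all 4 lists, against 25.7% far from both ends. The share was 24.25% (21.8 to 26.8) in the last megabase and 19.3% in the second megabase from the end. Dog autosomes have their centromere at one end; which end is first in the build was not examined. By count the densest windows of 1 Mb, picked after their values were seen, lay at chr18:24000001-25000000 with 27 loci of 37 peaks, the start of chromosome 14 with 26 of 59, chr16:14000001-15000000 with 25 of 63 and the start of chromosome 33 with 25 of 46. The first held 4 loci assigned to SEMA3D, a secreted semaphorin that guides axons and vessels. The second held 4 of WNT3A, a canonical WNT ligand, the third a run of zinc-finger genes (ZNF786, ZNF398, ZNF425, ZNF282 and ZNF777), and the fourth 4 of EPHA3, an ephrin receptor.

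Within genes, most loci stood alone, and a few genes held many, mostly in introns. The loci assigned to a gene, 6816 in all, fell on 5033 gene symbols, 4001 of which had 1 locus and 82 at least 5. The X-linked gene LOC492045, annotated as IL1RAPL2, an interleukin-1 receptor accessory protein-like gene, had the most, 19 of its 29 lymphoma L peaks, all in introns over 0.857 Mb. Their fold ran from 7.19 through a median of 13.3 to 19.2 in lymphoma L, 6.13 through 8.18 to 16.1 in healthy L, 7.88 through 16.6 to 20.7 in lymphoma M-H and 7.83 through 9.74 to 16.8 in healthy M-H. CSMD1, a large complement-regulating membrane protein gene, had 14 of 45 peaks in the set. EPHA6, an ephrin receptor gene, had 11 of 13. The uncharacterised LOC111091721 had 11 of 27, and CNTN5, encoding a neural adhesion molecule, 10 of 20. LOC607368, annotated as an immunoglobulin lambda-1 light chain, had 10 of 17 over 0.747 Mb of chromosome 26; B cells rearrange this locus and lose stretches of it in doing so. Its loci had medians of 14.3 in lymphoma L, 9.46 in healthy L, 17.8 in lymphoma M-H and 8.39 in healthy M-H.

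Further genes had 9 loci each. CTNNA3, an alpha-catenin of cell junctions, had all 9 of its 9 lymphoma L peaks in the set, spread over 1.36 Mb of intron, with folds of 12.2 to 22.2 in lymphoma L and 7.36 to 12.3 in healthy L. GABRG3, a GABA-A receptor subunit gene, had 9 of 14, and ANKS1B, encoding a postsynaptic density protein, 9 of 20. Several of these genes encode receptors or adhesion molecules of neurons; long introns offer more room for peaks, and the counts are not scaled to gene length. Many peaks did not always bring loci. Of 1167 genes with at least 5 lymphoma L peaks, 272 had none in the set. Picked after their values were seen as those with the most, GLI3, a hedgehog transcription factor, had 22 peaks and no locus, TRABD2B, a metalloprotease of WNT proteins, 20, PRDM16, a fat-cell and blood stem-cell regulator, 18, GALNT2, an O-glycosylation enzyme, 15, and PPM1H, a phosphatase, 13. Each of them had peaks in the other lists too, with 11 in healthy L and 8 in healthy M-H for GLI3, and 1 and 9 for PRDM16.

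Promoters were counted by gene. A promoter is taken here as the 1 kb either side of the transcription start, and a gene is measured if the lists assign it at least 1 peak anywhere. Some promoter peaks named below are assigned by the authors to a neighbouring gene, such as that of ZBTB4 to POLR2A. Those of SH3GLB1, ANKK1, SYCE1, OOEP and MIR34B are likewise assigned to other genes. Of 18111 measured genes, 1255 (6.93%) had a promoter peak in all 4 lists, in 1225 of them with a single locus across the promoter; 7207 had one in any list. Among named protein-coding genes the share was 5.39% (614 of 11383, 4.99 to 5.82), and among long non-coding RNA genes 9.90% (342 of 3456, 8.94 to 10.9). Among genes matched by symbol to a microRNA biotype it was 13.4% (21 of 157, 8.92 to 19.6). For these the start is that of the annotated microRNA entry, and whether a promoter lies there was not checked. A promoter peak in any list was present for 68.2% of these microRNA genes and 39.8% of all genes. Counted among genes with a promoter peak in any list, the 4-list share was 19.6% for microRNA genes, near the 17.4% of all genes. On that count long non-coding RNA genes had 25.1% and named protein-coding genes 14.2%. The peak covered the start itself in 60.2% of the 1255 genes (57.5 to 62.9), and in 53.5% of the 1875 genes with a promoter peak in both lymphoma lists and no healthy list. The latter were named protein-coding genes in 70.7%, the former in 48.9%. Near an island or shore were 82.8% of the former and 87.9% of the latter.

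The strongest shared promoter peaks of named protein-coding genes belonged to genes of mixed function, and several lay upstream of the start without covering it. PGD, an enzyme of the pentose phosphate pathway, had a peak at -597 to -126 bp from the start with a fold of 22.1 in lymphoma L, 26.6 in healthy L, 24.8 in lymphoma M-H and 23.8 in healthy M-H. DENND1B, which activates a Rab GTPase of endosomes, had one at -1217 to -769 bp, with 23.4, 29.6, 21.2 and 26.4 in the same order. SH3GLB1, a membrane-bending protein of autophagy and apoptosis, had one at -906 to -486 bp, with 22.0, 25.6, 23.7 and 17.9. In these 3 genes the whole peak lay upstream, and the start itself was outside it. FXYD5, a regulator of the sodium pump, had 15.6, 19.7, 18.6 and 22.2, again from a peak upstream of the start. DYNC2LI1, a motor subunit of cilia, had 16.9, 13.6, 18.8 and 12.4 from a peak across the start. The rest of the 12 strongest named protein-coding genes were LRRC72, ANKK1, PSKH2, LRRC49, ZFP69B, LHFPL4 and BLID, with folds of 14.4 to 19.5 in lymphoma L and 11.2 to 17.9 in healthy L. Of these, BLID is an inducer of cell death, LHFPL4 a partner of GABA-A receptors at inhibitory synapses, LRRC49 part of the complex that modifies tubulin with glutamate, and ZFP69B a zinc-finger protein. The peak covered the start in 6 of the 12 genes.

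Germline genes had the highest share of measured genes among the 13 gene lists. These lists hold textbook members and were chosen with earlier results of these data known, so the rank is a description. The germline list holds genes used in meiosis, germ cells, the piRNA pathway, sperm or the early embryo, most of them silent in blood and lymph node. Among 82 measured germline genes, a promoter peak was present in all 4 lists for 31 (37.8%; 28.1 to 48.6) beside 6.93% of all genes, and 20 more had one in 3 lists. Counted among genes with a promoter peak in any list the shares were 44.9% (31 of 69) and 17.4%, and on that count the DNA methylation enzymes and readers were higher, at 50% (3 of 6). All 31 peaks were in a CpG island or shore, and 26 covered the start. Their folds were ordinary for shared promoters, with a median of 10.7 in lymphoma L (11.3 over all 1255 genes), 8.10 in healthy L (8.49), 13.6 in lymphoma M-H (13.2) and 9.68 in healthy M-H (8.88). The count fell to 13 of 82 (15.9%) where every list was cut at a fold of 8, beside 2.76% of all genes, and to 10 of 82 (12.2%) with all lists cut to the length of the healthy M-H list, beside 3.19%.

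**Figure D4:**
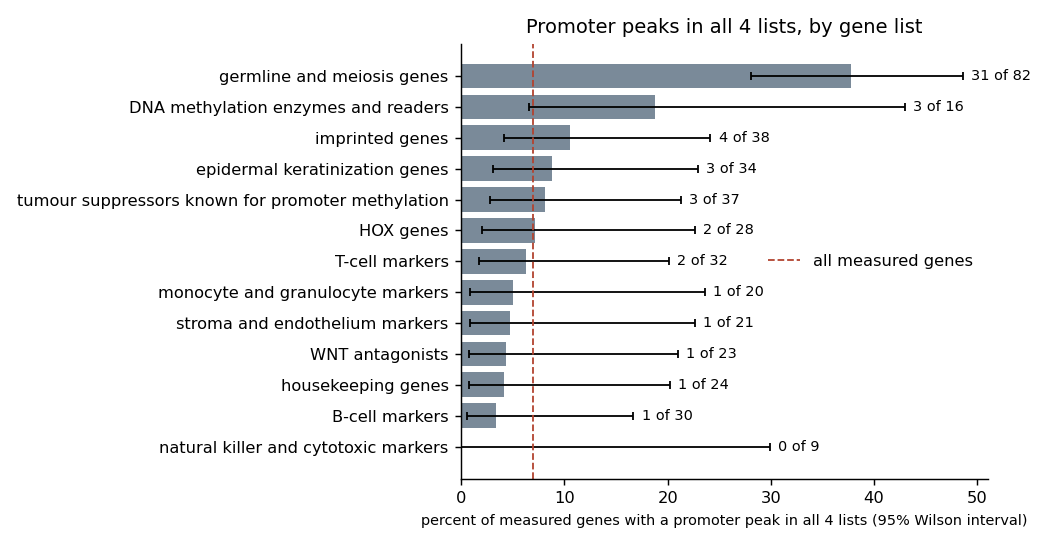
Percent of measured genes with a promoter peak in all 4 lists (horizontal axis, bars from 0) for each of 13 gene lists (vertical axis), with 95% Wilson intervals and the counts; the dashed line is the 6.93% of all measured genes. Germline and meiosis genes stand at 37.8%, and the intervals of the other 12 lists all include the line. The gene lists were chosen with earlier results of these data known.

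By role, chosen after the values were seen, the piRNA pathway and germ granule gave 9 of 17 genes. piRNAs are small RNAs that silence transposons in germ cells. DDX4, the germ-granule RNA helicase also called VASA, had a peak at -309 to 570 bp from its start with a fold of 14.7 in lymphoma L, 11.9 in healthy L, 17.6 in lymphoma M-H and 11.6 in healthy M-H. RNF17, a tudor-domain protein of the germ granule, had 15.4, 13.7, 15.6 and 12.6. These were the strongest germline promoters by their lowest rank in the 4 lists. MAEL, a piRNA factor that represses transposons, had 16.1, 7.36, 20.9 and 8.45, the highest of the 31 germline promoters in each lymphoma list. PIWIL2, a PIWI protein that binds piRNAs, had 12.6, 8.37, 18.4 and 9.47. PIWIL1, another PIWI protein, had 8.80, 7.996, 8.91 and 6.33, the lowest of the 31 in healthy M-H. The tudor proteins TDRD1, TDRD9 and TDRKH and the co-chaperone FKBP6 made up the 9, while ASZ1 and TDRD6 lacked only the healthy L peak. MOV10L1, PIWIL4 and TDRD12 had no promoter peak in any list.

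Meiotic chromosome and recombination genes gave 10 of 29, with 11 more in 3 lists. SYCP1, the transverse filament of the synaptonemal complex that pairs homologous chromosomes, had 10.7, 8.83, 14.1 and 8.88. TEX12, a central element protein of the same complex, had 12.8, 9.02, 17.3 and 9.88, and SYCE1, another central element protein, had 8.68, 8.24, 9.94 and 6.84. TEX15, needed for meiotic recombination and germline transposon silencing in mice, had 15.9, 8.51, 19.8 and 11.5. SMC1B, the meiotic cohesin subunit, had 9.04, 7.19, 17.6 and 14.4, with the highest healthy M-H fold of the 31 genes. TERB1, which tethers telomeres to the nuclear envelope in meiosis, had 10.7, 10.7, 10.9 and 9.97. MEI1 and MEI4, factors of meiotic double-strand break formation, MEIKIN, a meiotic kinetochore factor, and SPATA22, a recombination factor, were the others. SYCP2, SYCE2 and SYCE3 of the same complex had no promoter peak in any list, so its genes did not share 1 pattern.

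Germ cell regulators gave 5 of 12. SOHLH2, a transcription factor of early germ cells, had 10.7, 9.62, 16.3 and 10.3. The RNA-binding proteins DAZL and BOLL, of one gene family, had 8.83, 6.21, 9.30 and 7.95 and 11.96, 8.95, 9.10 and 10.5. BRDT, a testis bromodomain protein, had 13.4, 6.54, 17.9 and 9.41, and ADAD1, a testis RNA-binding protein, was the fifth. Sperm and testis products gave 4 of 12 (ACTL9, SLC25A31, SPATA16 and ZPBP2). Oocyte and early embryo genes gave 3 of 12: POU5F1, the pluripotency factor OCT4, had 10.2, 6.85, 14.6 and 11.7, and DPPA5 and OOEP, which are close neighbours on chromosome 12, were the other two. NANOG had no promoter peak in any list. Among the 20 genes in 3 lists, 11 lacked the healthy M-H peak (among them STRA8, DMC1, HORMAD1 and STAG3) and 9 lacked the healthy L peak (among them SPO11, REC8, SYCP3 and MSH4). CPEB1, among the 11, has a 4-list locus across its promoter, but the healthy M-H peak lies outside the 1 kb window. None of the 20 lacked only a lymphoma peak. Of all 11134 lymphoma L peaks in 3 lists, at any location, only 627 lacked just the lymphoma M-H peak. That is a count of peaks and not of genes, and it cannot include a missing lymphoma L peak.

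**Figure D5:**
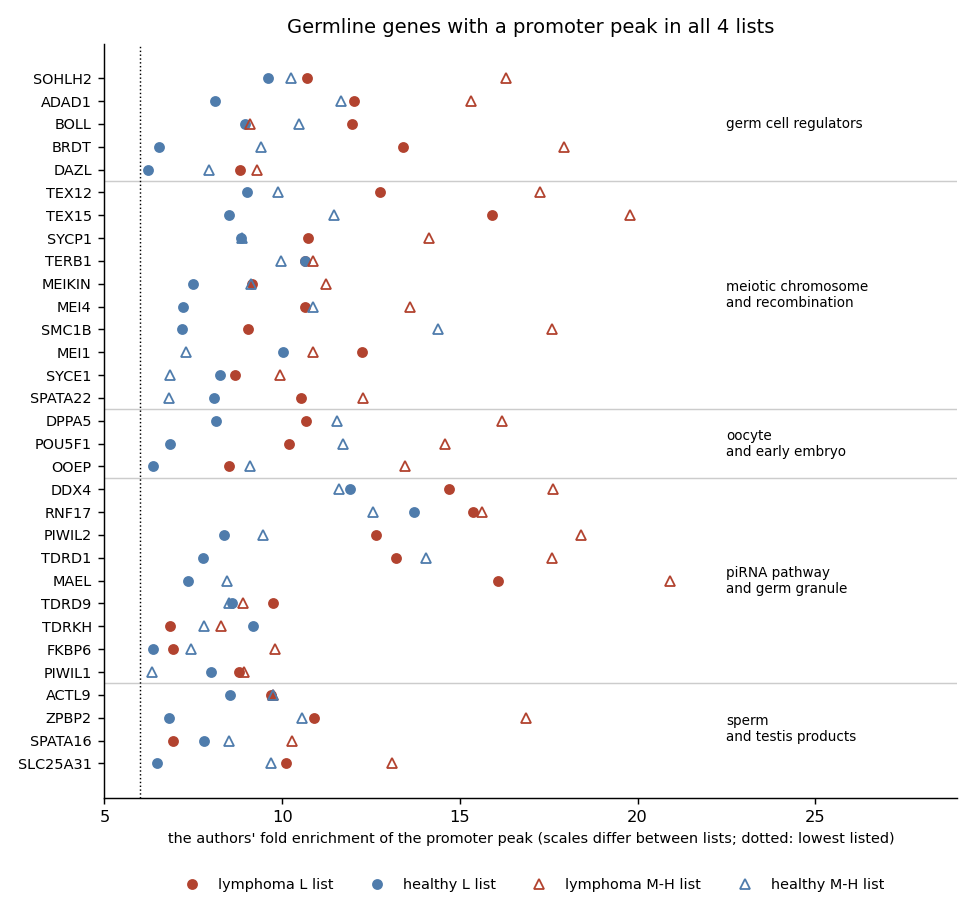
The authors' fold enrichment of the promoter peak (horizontal axis, listed from 6 upward) for the 31 germline genes with a promoter peak in all 4 lists, grouped by role (vertical axis); circles are L lists, open triangles M-H lists, red lymphoma and blue healthy. Points of different lists are on different scales; the genes run from 6.86 to 16.1 in lymphoma L and from 6.21 to 13.7 in healthy L.

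The other lists gave few genes each, at shares whose intervals include the 6.93% of all genes. Genes not measured are left out of each share, in numbers that differ between lists. They were 29 of 111 germline, 20 of 58 imprinted, 14 of 23 natural killer, 23 of 43 monocyte and granulocyte and 21 of 45 housekeeping genes. Of 38 imprinted genes, which are expressed from one parental copy, 4 had a promoter peak in all 4 lists. NAP1L5, a nucleosome assembly protein gene, had 11.3, 8.43, 11.6 and 9.40. TFPI2, a protease inhibitor also counted among the tumour suppressors, had 9.34, 8.98, 14.4 and 7.95. MAGEL2, of the Prader-Willi region in humans, had 6.69, 6.32, 9.47 and 8.74, and DIO3, the enzyme that inactivates thyroid hormone, had 6.32, 6.93, 7.56 and 7.03, close to the lower limit in all lists. Of 37 tumour suppressors known for promoter methylation, the others were APC, which restrains WNT signalling, with 11.8, 10.2, 18.8 and 13.1 from a peak at -1279 to -449 bp, and SOCS3, a brake on cytokine signalling, with 12.2, 9.04, 14.4 and 7.42. APC was also the only one of 23 WNT antagonists.

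Blood cell genes were in the set at shares near that of all genes. Of 30 measured B-cell markers 1 was, POU2F2, the B-cell transcription factor OCT2, with a fold of 12.1, 9.04, 11.2 and 8.88 from a peak that starts 308 bp inside the gene. Of 32 T-cell markers, FOXP3, the regulatory T-cell factor on the X chromosome, had 15.6, 6.54, 15.3 and 7.01 across its start, and TCF7, a T-cell transcription factor, had 7.60, 6.88, 9.13 and 8.14 from upstream of it. CEBPD, a myeloid transcription factor, was the 1 of 20 monocyte and granulocyte markers, VWF, the endothelial clotting protein, the 1 of 21 stroma and endothelium markers, and none of 9 natural killer markers was in the set. The lists hold DNA methylation and no RNA, so they cannot check the labelled cell types by marker expression, and the cell makeup of the aspirates was not measured.

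Of 16 genes for DNA methylation enzymes and readers 3 were in the set (18.8%; 6.59 to 43.01). TET2, which oxidises methylcytosine, had 15.6, 14.7, 9.62 and 8.17 from a peak upstream of its start. DNMT3A, a de novo methyltransferase, had 7.54, 7.52, 8.39 and 7.29 across the start that the lists use, and ZBTB4, a reader of methylated CpG, had 12.3, 11.2, 11.5 and 7.29. HOXD1 and HOXB4 were the 2 of 28 HOX genes, body-plan transcription factors. RPL13A, a ribosomal protein gene, was the 1 of 24 housekeeping genes, from a peak at -1316 to -498 bp. KRT6A, KRT14 and KRT4, keratins of skin and lining epithelium, were the 3 of 34 keratinization genes, and KRT6A had 14.5, 11.2, 17.2 and 10.1.

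MicroRNA genes were examined after their share was seen. The start used is that of the annotated microRNA entry, so a peak near it need not be in a promoter. The authors annotated the peaks of MIR8799G, MIR8799D, MIR8799E-2 and MIR129-1, among others, as downstream. Of the 8 measured genes of the MIR8799 family, taken by name, 7 had a peak within 1 kb of that start in all 4 lists. MIR8799F had one in 3. MIR8799C and MIR8799E-1 had no biotype match and are outside the 21 of 157. They lie on chromosomes 3, 6, 10, 16, 20 and 29. MIR8799G had 19.4, 11.0, 19.3 and 12.1 in lymphoma L, healthy L, lymphoma M-H and healthy M-H, and MIR8799A had 17.4, 12.1, 15.3 and 11.6. In 6 of the 7 the peak covered the start of the microRNA. Family members share sequence, and reads from near-identical copies may not be placed uniquely, so these 7 are not independent and their placement is uncertain. Conserved microRNAs in the set included MIR34B, a p53 target, with 10.1, 13.1, 11.0 and 7.42, and MIR129-1 with 17.4, 9.17, 17.6 and 7.95. MIR139 had 11.1, 6.44, 16.2 and 10.4, and MIR99B had 10.2, 7.77, 11.6 and 9.18.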

How the data were processed

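Captured methylated DNA of 16 libraries was listed as peaks, with 1 list deposited for each of the 4 peak groups. The submitters' processing notes give BWA, MACS2 and the build CanFam3.1, with neither versions nor roles. Per the file headers, each peak has a position, a fold enrichment (a ratio), an assigned gene, a distance to its start, and flags; p-values, read counts and values per dog are not used here. The loci and gene lists (textbook membership) were chosen with earlier results of these data known.

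Starts were read as 0-based and printed 1-based. Transcription starts were recovered from peak start and deposited distance, 1 start for 18111 of 18147 symbols. Biotypes came from a RefSeq table of another assembly (UU_Cfam_GSD_1.0), matched by symbol for 87.1%, with no coordinates taken. In the lymphoma L list 51 of 54 symbols turned into dates were restored. Peaks sharing 1 bp overlapped; promoters were 1 kb either side of a start. Genes ranked by the lowest of their 4 within-list fold percentiles: the text names the 12 highest promoters of named protein-coding genes, the 8 highest other loci, up to 5 genes per list and the genes with most loci; germline genes by role, 1 Mb windows, microRNAs and genes without loci were chosen after seeing values. One gene that the rule takes is not reported here by name. No test was run, with 1 pooled list per group. Depth is unknown. Analyses used Python 3.11.15, pandas 2.3.3, numpy 2.4.6, scipy 1.17.1 and matplotlib 3.10.9. The overlap step was tested on simulated data.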

Additional observations from a re-analysis of the deposited data

How the results depend on the processing

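The number of loci was 9748 to 11730 with a 50% reciprocal overlap, a base common to all lists or another reference list, and fell to 6365 with lists of equal length and 5438 at a fold of at least 8. Under these 2 settings the genes with a promoter peak in all 4 lists fell to 577 and 499, the germline genes to 10 and 13, the CpG island percent of loci to 2.11 and 1.86, and the percent within 1 kb of a start to 8.59 and 8.61; both settings keep fewer peaks. The island percent was 5.70, 9.16 and 3.38 by the flags of the healthy L, healthy M-H and lymphoma M-H lists and 2.55 with reciprocal overlap. The percent at a start was 9.72 from the healthy M-H list and 9.21 with reciprocal overlap; the cause was not tested. Other promoter windows gave 946 and 1301 genes and 26 and 30 germline genes. The settings for germline genes, island-or-shore and intergenic percent were added after seeing the data. The island-or-shore percent ranged from 31.8 to 41.5 and the intergenic percent from 41.2 to 47.0. No paired analysis was possible because each group has 1 pooled list, which also prevents leaving out a dog.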
